A study of Mus musculus with 34 samples.

Results

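Oligodendrocytes, the myelinating cells of the brain, arise from precursor cells that persist throughout the adult brain and keep dividing and maturing there. Expression of 10 genes that mark these precursors and the first steps of their differentiation (*Pdgfra*, *Cspg4*, *Gpr17*, *Bmp4*, *Enpp6*, *Olig1*, *Olig2*, *Sox10*, *Tcf7l2* and *Bcas1*) was followed across 3 brain regions and 3 treatments. The genes were chosen by symbol, all 10 were found among the 16389 genes of the deposited table, and all 10 passed the filter on low values, which kept 14706 genes for testing. Genes are given with Entrez gene IDs and positions on mouse build GRCm38.

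A precursor leaves the pool in steps. PDGF signalling through the receptor PDGFRA keeps precursors alive and dividing, the transcription factors OLIG1, OLIG2 and SOX10 hold the cell in the lineage, and a committed precursor switches on GPR17, BMP4 and BCAS1 before the newly formed oligodendrocyte switches on ENPP6 and TCF7L2 and then the myelin genes. Microglia and radiation are both known to act on these cells: dividing precursors are sensitive to radiation, and microglia release growth factors for them and clear dying ones.

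The study asked how brains differ once their microglia have been replaced by cells from the bone marrow. All hosts were male C57BL/6 mice, and a mouse gave several of the regions, namely cortex, hippocampus and the thalamus, which was dissected together with the striatum and is called thalamus here. WT CON mice, labelled vehicle, received neither irradiation nor a transplant. GFP-BM CON mice, labelled irradiation, were irradiated over the whole body with 1000 cGy and received bone marrow cells from CAG-EGFP donors, whose GFP is driven by a promoter active in most cells. GFP-BM REPOP mice received the same irradiation and marrow and, 3.5 months later, the CSF1R inhibitor PLX3397 at 600 ppm in the diet for 14 days, followed by 6 months of recovery. The inhibitor removes microglia, and cells of the donor marrow then settle the brain. These mice are called irradiated (GFP-BM CON) and repopulated (GFP-BM REPOP) from here on. Both share irradiation and marrow, and they differ by the inhibitor and what followed it. The age given for the mice is 1.5 months unless otherwise stated, and 4 months at irradiation in a legend of the study. Each treatment had 4 mice. The cortex gave 3, 4 and 4 libraries for WT CON, irradiated and repopulated, the hippocampus 4, 4 and 4, and the thalamus 4, 3 and 4. P-values measure the spread between mice of a group.

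Depth was similar between libraries. The reads behind the deposited values ranged from 16346101 to 24694914 per library, with a median of 20436755. *Bmp4* and *Enpp6* were the least deeply covered genes, with 15 to 107 and 15 to 226 reads per library, whereas *Bcas1* had 1348 to 8404. In bulk tissue, fewer cells of a type and less RNA per cell cannot be told apart, and this holds for every value below.

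Some libraries stood apart. Among the hippocampus libraries, 4 had a single marker gene that goes against their label: *Spink8*, a gene of CA1 pyramidal neurons, lay under the cortex median of 3.96 FPKM in WT CON replicates 2 and 3 and in repopulated replicate 1, and *Drd1*, a dopamine receptor of striatal neurons, reached 46.9 FPKM in repopulated replicate 4 against at most 24.3 in the other regions. The whole list of 10 genes of hippocampal neurons, to which *Spink8* belongs, did not go against the label in the first 3 of them: its summed level was 276 and 101 FPKM in WT CON replicates 2 and 3 and 151 in repopulated replicate 1, against 125 to 226 in the 8 hippocampus libraries not named here and 46.9 to 74.4 in the cortex. In repopulated replicate 4 it was 61.9 FPKM, within the cortex range. Values between treatments in the hippocampus are given below for all 10 genes also without these 4 libraries. Libraries also differed in the level of GC-rich against GC-poor genes (the GC measure, the median log2 level of the tenth of genes with the highest GC content minus that of the tenth with the lowest). It ranged from 1.09 to 3.65 in WT CON thalamus, from 0.45 to 0.82 in irradiated thalamus and from 0.5 to 0.94 in repopulated thalamus. As a check of the treatment, the genes *Lyz2* and *Ms4a7* of marrow-derived macrophages were higher in repopulated than in WT CON thalamus, with log2 fold changes of 2.99 and 3.98.

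The sequences before the start sites of some of these genes differ in base composition, with a GC content of 38.4% to 72.8%, and the transcripts do so over a narrower range, from 42.3% to 61.8%. Windows of 250 bases upstream of a RefSeq start site on build GRCm38.p6 were matched for 6 of the 10 genes (*Pdgfra*, *Cspg4*, *Bmp4*, *Enpp6*, *Olig2* and *Tcf7l2*, the last with 2 starts). The windows of *Olig2*, *Enpp6* and *Tcf7l2* are printed here in the direction of transcription, with CG dinucleotides in capitals, to show this range beside genes described in detail: *Enpp6* is the most GC-poor of the 10 transcripts, with a GC content of 42.3%, *Olig2* is a GC-rich gene of the same lineage at 58.5%, and *Tcf7l2* varied most between libraries.
Olig2, chr16:91225300-91225549, plus strand: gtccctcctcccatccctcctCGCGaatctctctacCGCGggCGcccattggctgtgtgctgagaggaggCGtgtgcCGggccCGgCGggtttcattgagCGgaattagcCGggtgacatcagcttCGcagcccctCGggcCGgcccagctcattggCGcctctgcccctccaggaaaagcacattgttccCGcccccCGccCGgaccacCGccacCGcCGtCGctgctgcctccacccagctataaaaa
Enpp6, chr8:46986637-46986886, plus strand: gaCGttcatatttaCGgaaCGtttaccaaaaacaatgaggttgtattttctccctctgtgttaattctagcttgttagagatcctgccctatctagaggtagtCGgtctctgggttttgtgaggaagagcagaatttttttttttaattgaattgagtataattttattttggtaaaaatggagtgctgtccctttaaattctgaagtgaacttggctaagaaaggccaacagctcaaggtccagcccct
Tcf7l2, chr19:55741560-55741809, plus strand: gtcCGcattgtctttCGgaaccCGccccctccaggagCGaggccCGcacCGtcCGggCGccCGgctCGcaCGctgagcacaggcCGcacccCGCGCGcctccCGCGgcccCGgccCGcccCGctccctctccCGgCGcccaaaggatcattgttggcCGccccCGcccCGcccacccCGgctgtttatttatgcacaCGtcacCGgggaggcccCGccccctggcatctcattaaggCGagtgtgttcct
Tcf7l2, chr19:55895071-55895320, plus strand: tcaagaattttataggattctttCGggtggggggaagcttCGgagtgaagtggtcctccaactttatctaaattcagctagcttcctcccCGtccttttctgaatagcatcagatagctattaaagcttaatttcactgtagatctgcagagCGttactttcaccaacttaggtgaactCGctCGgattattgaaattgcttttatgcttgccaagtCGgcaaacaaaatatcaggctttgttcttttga

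The *Olig2* window holds 22 CG dinucleotides and the first *Tcf7l2* window 30, whereas the *Enpp6* window holds 4 and the second *Tcf7l2* window 7. These last windows both lie inside the gene as annotated here, before a start site downstream of its first base. Over 32851 RefSeq windows of this length the median was 6, with quartiles of 2 and 16, and 92.1% held at least 1. The E-box CANNTG, read on both strands, occurred in 66.2% of all windows, 3 times in that of *Bmp4*, once in that of *Pdgfra* and in none of the printed ones. The letters ACAAAG, a core bound by SOX and TCF factors, occurred in 16.5% of all windows and, among those matched, once in the second *Tcf7l2* window. A match of letters is a description of the window only.

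None of the 10 genes changed between treatments in any region at an adjusted p under 0.05, and *Gpr17* was the gene with an unadjusted p under 0.05 in all 3 regions, lower in repopulated than in WT CON mice in each. The regions share mice, so these 3 values are not independent repeats. How many of all genes meet this rule in all 3 regions was not counted. Under limma-trend with Benjamini-Hochberg adjustment over all genes, 0 of 10 genes passed in each of 9 comparisons. For repopulated against WT CON mice, the share of all genes that passed was 0.734% in cortex, 0.0136% in hippocampus and 0.836% in thalamus. For irradiated against WT CON it was 0.320%, 0% and 0%, and for repopulated against irradiated 0.0476%, 0.0272% and 0%. The low share of all genes sets the scale on which these counts of 0 are read.

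At an unadjusted p under 0.05, repopulated and WT CON mice differed in 3 of 10 cortex values, 1 hippocampus value and 5 thalamus values, where 14.3%, 9.68% and 25.0% of all genes did. Irradiated and WT CON mice differed in 0, 1 and 3 of the 10 genes, against 16.0%, 23.9% and 20.7% of all genes. Repopulated and irradiated mice differed in 2, 0 and 0 of the 10 genes, against 4.27%, 11.7% and 0.945% of all genes. The median log2 fold change of the 10 genes between repopulated and WT CON mice was -0.08 in cortex, 0.05 in hippocampus and -0.32 in thalamus, beside medians over all genes of 0.02, 0.00 and -0.05. Between irradiated and WT CON mice it was -0.11, 0.13 and -0.29, beside 0.02, -0.03 and -0.06. Both sets of contrasts share the WT CON libraries.

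**Figure D1:**
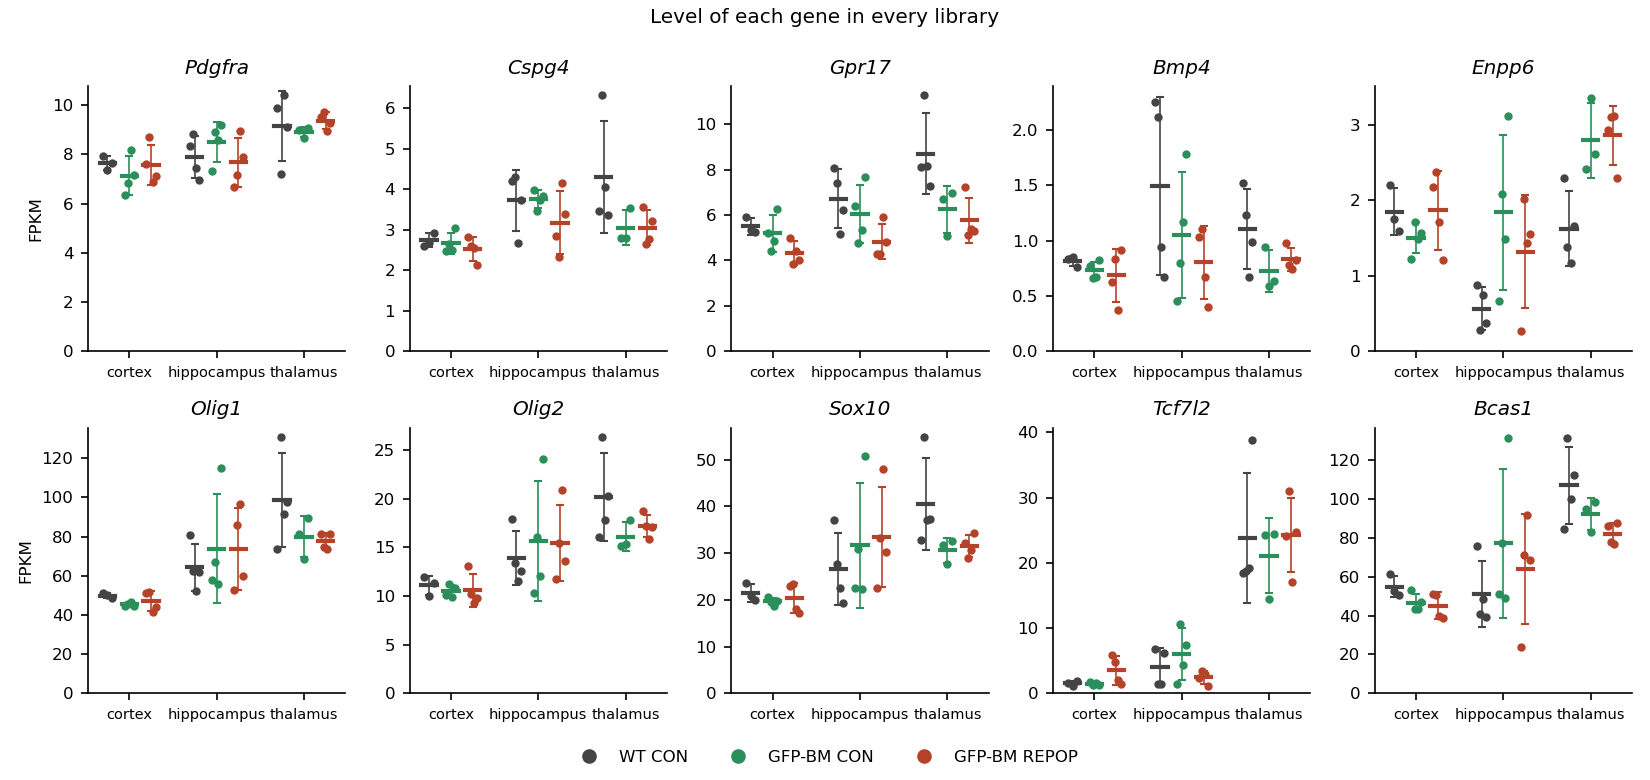
FPKM of the 10 genes in each of the 34 libraries, 1 panel per gene, grouped by region and coloured by treatment, with bars for the group mean ± SD. *Tcf7l2* is high in the thalamus, from 14.5 to 38.8 FPKM, and *Gpr17* lies lower in transplanted than in WT CON thalamus with no overlap.

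*Pdgfra* (Entrez 18595, chr5:75151322-75198206) encodes the PDGF receptor that defines precursors. It was the steadiest of the 10 genes, with 6.33 to 10.4 FPKM over all 34 libraries, a ratio of 1.65 between the extremes. In the thalamus it read 9.89, 7.18, 10.4 and 9.11 FPKM in WT CON libraries, 8.98, 8.67 and 9.07 in irradiated libraries, and 9.53, 9.71, 8.93 and 9.25 in repopulated libraries. The WT CON libraries enclosed both transplanted groups. The log2 fold change between repopulated and WT CON mice was 0.04 in the thalamus (95% interval -0.21 to 0.30, adjusted p = 0.795), -0.02 in the cortex (-0.23 to 0.19) and -0.04 in the hippocampus (-0.33 to 0.24). With each library corrected for GC content and gene length, the thalamus value was -0.24 (adjusted p = 0.128), of the opposite sign. The transcript of *Pdgfra* has a GC content of 48.1%.

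*Cspg4* (Entrez 121021, chr9:56865104-56899870) encodes NG2, a proteoglycan on the surface of precursors that pericytes, the mural cells of capillaries, also carry. Its 34 values ran from 2.12 to 6.33 FPKM. In the thalamus it read 3.47, 6.33, 4.04 and 3.37 FPKM in WT CON libraries, 2.80, 2.79 and 3.54 in irradiated libraries and 3.57, 2.64, 2.78 and 3.22 in repopulated libraries. WT CON replicate 2 stood above every other library, and the groups otherwise overlapped. The log2 fold change between repopulated and WT CON mice was -0.44 (SE 0.20, adjusted p = 0.200). The summed level of 10 pericyte genes moved with it: it was 122 FPKM in WT CON replicate 2 and 74.2 to 84.2 in the other WT CON libraries, 71.9 to 77.0 in irradiated and 65.5 to 80.1 in repopulated thalamus. None of these 10 pericyte genes was at 0 in any library, and none passed the test between treatments in the thalamus (3 of 10 lower at an unadjusted p under 0.05). The part of pericytes in the *Cspg4* value was not tested.

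*Gpr17* (Entrez 574402, chr18:31942999-31949890) encodes a receptor of committed precursors that holds back their maturation. In the thalamus its level was 8.10, 11.3, 8.15 and 7.26 FPKM in WT CON libraries, 6.72, 5.06 and 6.98 in irradiated libraries and 7.23, 5.13, 5.38 and 5.31 in repopulated libraries. Every transplanted mouse read below every WT CON mouse, repopulated replicate 1 by a narrow margin. In the cortex the values were 5.93, 5.32 and 5.26 FPKM in WT CON, 5.23, 4.40, 4.86 and 6.27 in irradiated and 5.01, 3.85, 4.40 and 4.04 in repopulated libraries. Here repopulated mice lay below WT CON mice without overlap, and irradiated mice overlapped both. In the hippocampus they were 8.08, 7.42, 5.15 and 6.23 FPKM in WT CON, 6.39, 4.78, 5.32 and 7.67 in irradiated and 4.27, 4.28, 5.93 and 4.83 in repopulated libraries. The 3 hippocampus groups overlapped.

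Set against WT CON mice, the level of *Gpr17* in repopulated mice was 0.786 times as high in the cortex, 0.718 times in the hippocampus and 0.663 times in the thalamus. The log2 fold changes were -0.35 (SE 0.12, 95% interval -0.61 to -0.08, unadjusted p = 0.0155, adjusted p = 0.255), -0.46 (SE 0.19, interval -0.88 to -0.05, unadjusted p = 0.0320, adjusted p = 0.480) and -0.58 (SE 0.17, interval -0.95 to -0.20, unadjusted p = 0.00618, adjusted p = 0.103) by limma-trend. None passed the threshold on adjusted p. The direction held in all 27 alternatives tried in the cortex (-0.42 to -0.29), all 28 in the hippocampus (-0.58 to -0.28) and all 27 in the thalamus (-0.73 to -0.44), of which 1, a single fit of all regions, passed with an adjusted p of 0.0245. Corrected for GC content and length, the values were -0.36, -0.38 and -0.53. Without the 4 hippocampus libraries picked by *Spink8* and *Drd1*, the hippocampus value was -0.49 (adjusted p = 0.692). Irradiated mice gave -0.09 in cortex, -0.15 in hippocampus and -0.46 in thalamus (SE 0.18, unadjusted p = 0.0292, adjusted p = 0.213), and repopulated against irradiated mice gave -0.25, -0.31 and -0.12.

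*Gpr17* was also read per *Pdgfra*, a marker of precursors that fibroblasts of the meninges and vessels express too. The part of fibroblasts in this ratio was not tested. It was 0.719 ± 0.0294 (SD, n = 3) in WT CON cortex and 0.577 ± 0.0978 (n = 4) in repopulated cortex. The ratio was 0.848 ± 0.117 and 0.628 ± 0.0289 in the hippocampus and 0.991 ± 0.385 and 0.616 ± 0.10 in the thalamus (n = 4 each). In all 3 regions the lowest WT CON ratio (0.689, 0.691 and 0.781) lay above the highest repopulated ratio (0.659, 0.663 and 0.759). Irradiated ratios ran from 0.594 to 0.874 in cortex, 0.536 to 0.871 in hippocampus and 0.584 to 0.770 in thalamus and overlapped both other groups except WT CON in the thalamus. The separation depended on the gene divided by. Read per *Olig2*, WT CON and repopulated ratios overlapped in cortex (0.464 to 0.532 and 0.378 to 0.476) and thalamus (0.357 to 0.502 and 0.298 to 0.386). In the hippocampus they did not (0.445 to 0.555 and 0.277 to 0.361). These ratios of FPKM values were calculated after the values of *Gpr17* were known and are given with no test.

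*Bmp4* (Entrez 12159, chr14:46383525-46390669) encodes a secreted ligand of the TGF-beta family that committed precursors make and that holds back myelination. It was low throughout, from 0.375 to 2.25 FPKM. In the hippocampus it read 2.25, 2.12, 0.943 and 0.668 FPKM in WT CON libraries, 0.455, 0.799, 1.17 and 1.78 in irradiated libraries and 1.03, 1.11, 0.676 and 0.403 in repopulated libraries. WT CON libraries spread over most of the range of all 12 libraries, and the groups overlapped. The log2 fold change between repopulated and WT CON mice was -0.74 (95% interval -1.77 to 0.28, adjusted p = 0.572). The summed level of 10 fibroblast genes of the meninges and vessels was 121, 69.9, 32.1 and 33.1 FPKM in the 4 WT CON hippocampus libraries, in nearly the order of *Bmp4*, and 18.4 to 44.4 in repopulated libraries. Fibroblasts of this kind also make *Bmp4*, and their part in its level was not tested. In the cortex and the thalamus the log2 fold changes were -0.27 (-0.81 to 0.26) and -0.32 (-0.87 to 0.22).

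*Enpp6* (Entrez 320981, chr8:46939197-47096762) encodes a choline phosphodiesterase that newly forming oligodendrocytes switch on. In the thalamus its level was 2.30, 1.38, 1.17 and 1.66 FPKM in WT CON libraries, 2.42, 3.36 and 2.61 in irradiated libraries and 2.93, 3.11, 3.12 and 2.29 in repopulated libraries. Transplanted mice read higher, with WT CON replicate 1 reaching the lowest repopulated library. The mean in repopulated thalamus was 1.76 times that in WT CON thalamus, a log2 fold change of 0.81 (SE 0.21, 95% interval 0.35 to 1.27, unadjusted p = 0.00265, adjusted p = 0.0726), and for irradiated mice it was 0.77 (SE 0.22, 0.28 to 1.27, adjusted p = 0.121). Without WT CON replicate 1 both passed, at 0.98 (adjusted p = 0.0112) and 0.95 (adjusted p = 0.0196). With each library corrected for GC content and gene length, both differences were near 0, at 0.09 (-0.40 to 0.57, adjusted p = 0.843) and 0.03 (-0.50 to 0.55, adjusted p = 0.961).

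In the hippocampus *Enpp6* read 0.876, 0.285, 0.742 and 0.370 FPKM in WT CON libraries, 0.673, 2.08, 1.49 and 3.12 in irradiated libraries and 0.270, 2.02, 1.44 and 1.56 in repopulated libraries. All 4 WT CON libraries were low, and so were irradiated replicate 1 and repopulated replicate 1. Log2 fold changes were 1.46 for irradiated mice (SE 0.58, 95% interval 0.20 to 2.73, unadjusted p = 0.0264, adjusted p = 0.160) and 0.94 for repopulated mice (SE 0.58, -0.32 to 2.20, adjusted p = 0.569). Corrected for GC content and length these were 0.83 and 0.61, and without the 4 libraries picked by *Spink8* and *Drd1* they were 1.34 and 1.42. In the cortex, by contrast, the 3 groups overlapped between 1.21 and 2.38 FPKM, with log2 fold changes of -0.28 (-0.74 to 0.19) and -0.02 (-0.48 to 0.45). The difference of the irradiated effect between hippocampus and cortex was 1.73 (SE 0.61, unadjusted p = 0.00846) and did not pass (adjusted p = 0.494).

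**Figure D2:**
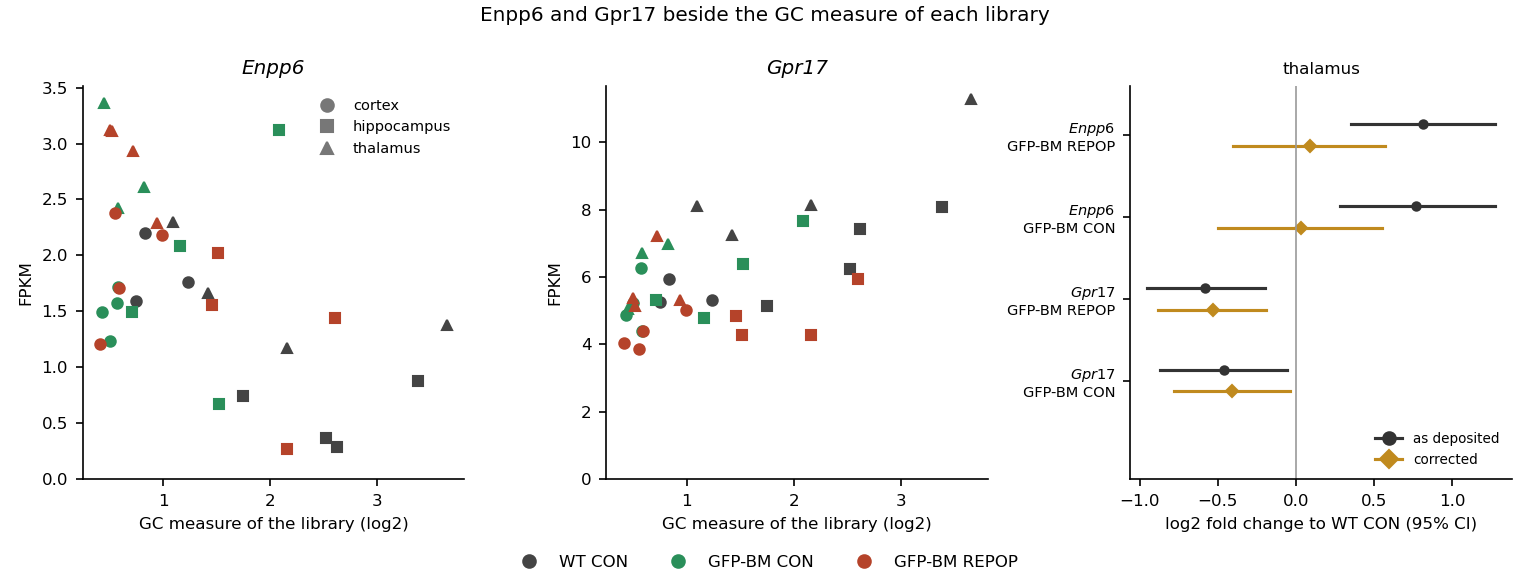
FPKM of *Enpp6* and of *Gpr17* (y axes) against the GC measure of each library (x axis, log2 units), coloured by treatment. The third panel gives the thalamus log2 fold changes of *Enpp6* and *Gpr17* for irradiated and for repopulated against WT CON mice. Each is shown as deposited and after correction for GC content and length. Corrected, the repopulated value of *Enpp6* moves from 0.81 to 0.09 while that of *Gpr17* moves from -0.58 to -0.53.

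The lineage transcription factors *Olig1* (Entrez 50914, chr16:91269769-91271939), *Olig2* (Entrez 50913, chr16:91225550-91228677) and *Sox10* (Entrez 20665, chr15:79154913-79164490) are expressed from the precursor to the myelinating cell, so that their levels follow the whole lineage. In the thalamus *Sox10* read 32.8, 54.9, 37.1 and 37.4 FPKM in WT CON, 31.8, 27.6 and 32.6 in irradiated and 32.1, 29.0, 30.7 and 34.4 in repopulated libraries. *Olig2* read 16.1, 26.4, 17.8 and 20.3, then 15.1, 15.4 and 17.8, then 18.7, 17.2, 15.9 and 17.1 FPKM. *Olig1* read 73.6, 131, 91.4 and 97.9, then 81.5, 68.8 and 89.5, then 81.6, 74.5, 73.9 and 81.5 FPKM. For all 3 genes WT CON replicate 2 was the highest thalamus library, and it also had the highest GC measure, 3.65. The log2 fold changes between repopulated and WT CON mice were -0.34 for *Sox10* (SE 0.14, unadjusted p = 0.0401, adjusted p = 0.189), -0.20 for *Olig2* (adjusted p = 0.326) and -0.31 for *Olig1* (adjusted p = 0.222). Corrected for GC content and length they were -0.10, 0.05 and -0.06. In irradiated mice, whose *Sox10* values did not overlap those of WT CON mice, they were -0.38 (adjusted p = 0.220), -0.30 and -0.28.

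In the cortex the same 3 genes were nearly level. Means of WT CON, irradiated and repopulated mice were 49.9 ± 1.37, 45.5 ± 1.01 and 47.3 ± 5.08 FPKM for *Olig1*, 11.1 ± 1.02, 10.5 ± 0.601 and 10.6 ± 1.69 for *Olig2* and 21.5 ± 1.97, 19.7 ± 0.733 and 20.4 ± 3.28 for *Sox10* (SD, n = 3, 4 and 4). The cortex difference of *Olig1* between irradiated and WT CON mice, -0.13 on the log2 scale, had no overlap between groups but an unadjusted p of 0.0808. In the hippocampus single libraries were far from their groups: in irradiated replicate 4 *Olig1* reached 115 FPKM, *Olig2* 24.1 and *Sox10* 50.8, and the summed level of 20 myelin genes was 3507 FPKM there against 1208 to 2289 in the other irradiated libraries. The hippocampus log2 fold changes between repopulated and WT CON mice were 0.17, 0.14 and 0.32, each with an interval across 0.

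*Bcas1* (Entrez 76960, chr2:170343973-170427911) encodes a protein of newly forming myelin that mature oligodendrocytes keep. In the thalamus it read 84.3, 131, 100.1 and 112 FPKM in WT CON libraries, 94.9, 82.7 and 98.3 in irradiated libraries and 86.0, 77.6, 76.7 and 87.7 in repopulated libraries. WT CON mice were higher than repopulated mice except for replicate 1. Between them the log2 fold change was -0.36 (SE 0.13, 95% interval -0.64 to -0.09, unadjusted p = 0.0150, adjusted p = 0.144). Without WT CON replicate 1 it was -0.47 and passed (adjusted p = 0.0247), and corrected for GC content and length it was -0.22 (adjusted p = 0.181). In the cortex *Bcas1* read 61.3, 52.6 and 50.8 FPKM in WT CON and 51.2, 50.8, 39.7 and 38.8 in repopulated libraries, a log2 fold change of -0.29 (SE 0.11, unadjusted p = 0.0252, adjusted p = 0.290) with overlapping groups. The hippocampus value was 0.22 (-0.68 to 1.12), over a range of 24.1 to 91.4 FPKM in repopulated libraries alone.

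*Tcf7l2* (Entrez 21416, chr19:55741797-55933659) encodes a transcription factor of the Wnt pathway that newly formed oligodendrocytes express for a short time and that excitatory neurons of the thalamus express for life. Across the 34 libraries it ran from 1.08 to 38.8 FPKM, a ratio of 36, the widest of the 10 genes. In the cortex it read 1.63, 1.08 and 1.89 FPKM in WT CON, 1.75, 1.26, 1.53 and 1.30 in irradiated and 5.94, 4.81, 2.00 and 1.42 in repopulated libraries. The high mean of repopulated cortex came from replicates 1 and 2. The summed level of 10 genes of thalamic neurons was 94.1 and 100 FPKM in these same libraries, against 36.3 to 49.1 in the other 9 cortex libraries and 147 to 292 in the thalamus. None of the 10 was at 0. For *Tcf7l2* in the cortex the log2 fold change was 0.97 against WT CON mice (SE 0.41, unadjusted p = 0.0358, adjusted p = 0.318) and 1.01 against irradiated mice (SE 0.38, unadjusted p = 0.0205, adjusted p = 1.00), and the part of thalamic neurons in it was not tested.

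In the thalamus *Tcf7l2* read 18.4, 18.8, 19.2 and 38.8 FPKM in WT CON, 24.3, 14.5 and 24.5 in irradiated and 24.1, 31.1, 17.1 and 24.8 in repopulated libraries. The groups overlapped widely, and WT CON replicate 4, the highest, also had the highest summed level of thalamic neuron genes, 292 FPKM. The log2 fold change between repopulated and WT CON mice was 0.07 (95% interval -0.54 to 0.69, adjusted p = 0.858). In the hippocampus it read 6.76, 1.5, 1.42 and 6.26 FPKM in WT CON, 1.41, 10.7, 4.35 and 7.47 in irradiated and 2.32, 3.40, 3.04 and 1.17 in repopulated libraries. High and low libraries occurred in both WT CON and irradiated mice, with log2 fold changes of 0.59 for irradiated and -0.41 for repopulated against WT CON mice, both with intervals across 0. Without the 4 libraries picked by *Spink8* and *Drd1*, which include the low WT CON replicates 2 and 3, the irradiated value turned to -0.45 (-1.96 to 1.06) and the repopulated value was -0.99 (-2.74 to 0.75). The difference of the repopulated against irradiated effect between hippocampus and cortex was -2.02 (SE 0.75, unadjusted p = 0.0122) and did not pass (adjusted p = 0.382). Hippocampus libraries had summed levels of thalamic neuron genes of 43.1 to 117 FPKM in WT CON and 59.9 to 128 in irradiated mice. In repopulated mice these levels were 42.9 to 55.7 FPKM. The part of thalamic neurons in the hippocampus *Tcf7l2* values and in the difference of -2.02 was not tested.

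The other genes of the hippocampus were also compared without those 4 libraries, and again none passed. Repopulated against WT CON mice, the log2 fold change went from 0.17 to 0.36 for *Olig1*, from 0.14 to 0.26 for *Olig2*, from 0.32 to 0.58 for *Sox10* and from 0.22 to 0.57 for *Bcas1*, all in the same direction. It went from -0.74 to -0.47 for *Bmp4*, from -0.23 to -0.34 for *Cspg4* and from -0.04 to 0.07 for *Pdgfra*. Irradiated mice gave 0.15, 0.12, 0.21 and 0.53 with all libraries for *Olig1*, *Olig2*, *Sox10* and *Bcas1*, and -0.00, -0.02, 0.16 and 0.38 without the 4. For *Bmp4*, *Cspg4* and *Pdgfra* the values were -0.45, 0.03 and 0.11 with all libraries and -0.36, -0.08 and 0.15 without the 4. Each of these intervals crossed 0, with 2 libraries left in WT CON and 2 in repopulated mice.

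**Figure D3:**
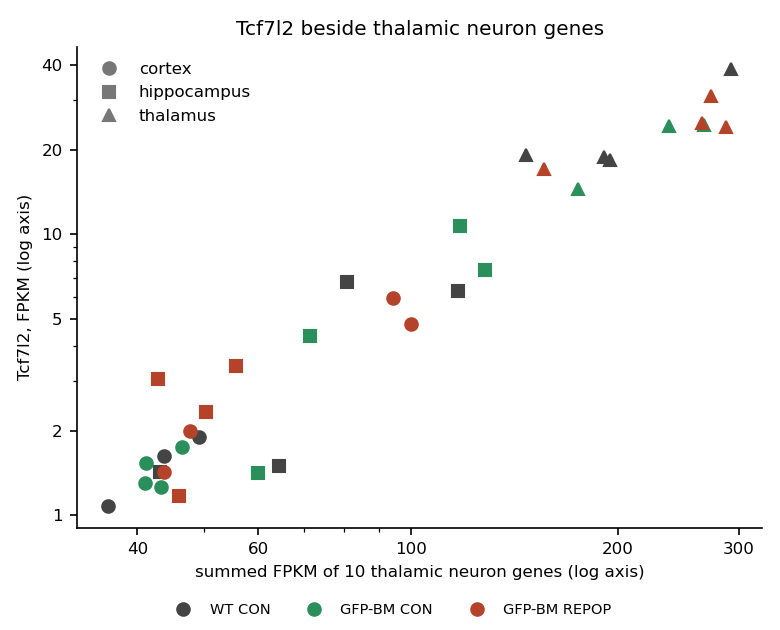
*Tcf7l2* (y axis, FPKM) against the summed FPKM of 10 genes of thalamic neurons (x axis) in each of the 34 libraries, both on log axes, with colours for treatment and symbols for region. Repopulated cortex replicates 1 and 2, at 5.94 and 4.81 FPKM of *Tcf7l2*, lie at summed levels of 94.1 and 100 FPKM, between the other cortex libraries and the thalamus.

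**Figure D4:**
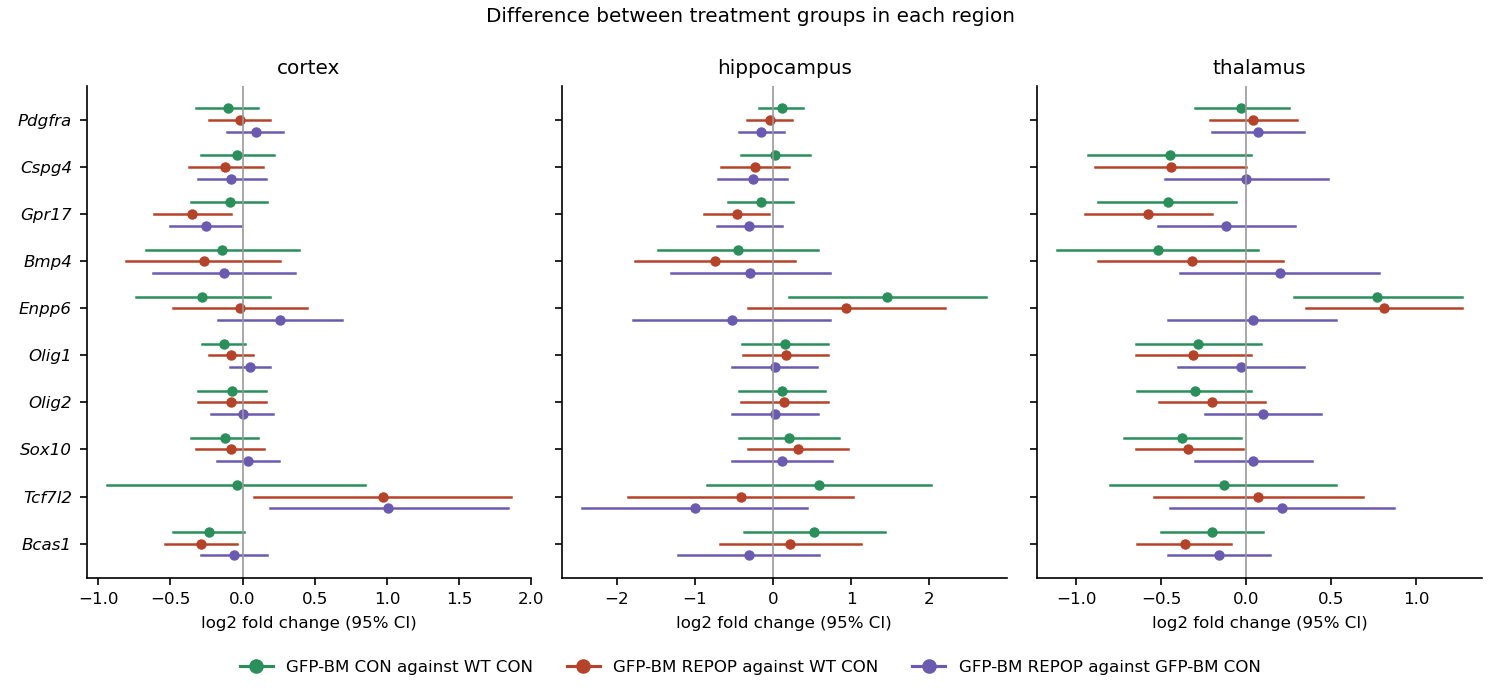
Log2 fold changes of the 10 genes in 3 regions for repopulated against WT CON, irradiated against WT CON and repopulated against irradiated mice, with 95% intervals from limma-trend. *Gpr17* is below 0 in all 3 regions in the first of these comparisons, at -0.35, -0.46 and -0.58, and no gene passed the adjusted threshold.

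Whether a treatment effect differed between regions was asked with interaction contrasts in 1 fit of the 34 libraries, in which the mouse was a random block. Of the 10 genes, 0 passed in any of 9 such contrasts under limma-trend. The share of all genes that passed was 0.0340% for the repopulated against WT CON effect between hippocampus and cortex, 0% between thalamus and cortex and 0.0340% between thalamus and hippocampus. It was 0% in all 3 contrasts of the irradiated against WT CON effect, and 0.177%, 0% and 0.0272% in those of the repopulated against irradiated effect. At an unadjusted p under 0.05, besides *Enpp6* and *Tcf7l2* named above, *Sox10* differed between thalamus and hippocampus (-0.66, SE 0.31, unadjusted p = 0.0461, adjusted p = 0.499). For *Gpr17* the repopulated against WT CON effect differed between regions by -0.12, -0.24 and -0.12, with an interval of -0.75 to 0.28 for the widest of these.

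More genes passed between untreated brain regions than between treatments, both of the 10 and of all genes. Regions were tested in 1 fit of the 34 libraries and treatments in a separate fit per region, so these counts are not of equal power. In WT CON mice 7 of the 10 genes were higher in the thalamus than in the cortex, where 13.0% of all genes were higher and 30.0% differed in either direction (adjusted p under 0.05 by limma-trend). These 7 were *Tcf7l2*, *Olig1*, *Olig2*, *Sox10*, *Bcas1*, *Gpr17* and *Cspg4*. The median log2 fold change of the 10 genes was 0.73, beside -0.01 over all genes. Against the hippocampus, 4 of 10 were higher in the thalamus, where 7.83% of all genes were higher and 17.7% differed, with a median of 0.57 beside -0.00. Between hippocampus and cortex 1 of 10 differed, where 36.9% of all genes differed and 21.2% were lower in the hippocampus, with a median of 0.29 beside 0.06. That gene was *Enpp6*, which was lower in the hippocampus.

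*Tcf7l2* had the widest regional contrast, with 23.8 ± 10 FPKM in WT CON thalamus (SD, n = 4) against 1.53 ± 0.416 in cortex (n = 3), 15.5 times as high (log2 fold change 3.84, SE 0.57, adjusted p = 2.68e-05) and 5.97 times the hippocampus level (2.82, SE 0.53, adjusted p = 6.48e-04). Neurons that express it are part of the thalamus, and their share in this value was not tested. The transcription factors of the lineage were also higher in the thalamus. *Olig1* was at 49.9 FPKM in cortex and 98.5 in thalamus (log2 fold change 0.95, SE 0.21, adjusted p = 0.00186), *Sox10* at 21.5 and 40.6 (0.89, SE 0.24, adjusted p = 0.00831) and *Olig2* at 11.1 and 20.2 (0.84, SE 0.21, adjusted p = 0.00563). *Bcas1* was 1.94 times as high in the thalamus as in the cortex (0.95, SE 0.31, adjusted p = 0.0258), *Gpr17* 1.58 times (0.63, SE 0.18, adjusted p = 0.0136) and *Cspg4* 1.57 times (0.59, SE 0.19, adjusted p = 0.0251). For each of the 7 genes, which are those that passed the test on these same libraries, the WT CON thalamus and cortex libraries did not overlap. The share of all genes without overlap was not counted. *Pdgfra* (0.25, adjusted p = 0.111), *Bmp4* (0.36, adjusted p = 0.485) and *Enpp6* (-0.19, adjusted p = 0.770) did not pass.

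Some of these calls rested on single libraries. *Cspg4* no longer passed without WT CON cortex replicate 1 (0.57, adjusted p = 0.0709), cortex replicate 2 (0.56, adjusted p = 0.0684), cortex replicate 3 (0.63, adjusted p = 0.0556) or thalamus replicate 2 (0.39, adjusted p = 0.128). *Gpr17* no longer passed without cortex replicate 3 (0.60, adjusted p = 0.0579) or thalamus replicate 2 (0.50, adjusted p = 0.0623), and *Bcas1* without cortex replicate 2 (0.92, adjusted p = 0.0654), cortex replicate 3 (0.89, adjusted p = 0.0889) or thalamus replicate 2 (0.85, adjusted p = 0.0829). *Tcf7l2*, *Olig1*, *Olig2* and *Sox10* passed in each of these fits. After correction for GC content and length all 7 passed, and *Pdgfra* passed as well (0.48, adjusted p = 0.00850).

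Between hippocampus and cortex *Enpp6* alone of the 10 genes passed, with 0.568 ± 0.285 FPKM in WT CON hippocampus (n = 4) and 1.85 ± 0.311 in WT CON cortex (n = 3). On the log2 scale the difference was -1.62 (SE 0.45, 95% interval -2.54 to -0.71, adjusted p = 0.00655), and the groups did not overlap. The GC measure was 1.75 to 3.38 in WT CON hippocampus and 0.75 to 1.23 in WT CON cortex. Corrected for GC content and length, the difference was -0.74 (interval -1.70 to 0.22, adjusted p = 0.223), while *Pdgfra* (0.41, adjusted p = 0.0164) and *Cspg4* (0.63, adjusted p = 0.0127) then passed as higher in the hippocampus. Without those 4 hippocampus libraries, *Enpp6* and *Tcf7l2* (2.06, adjusted p = 0.00688) passed.

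Thalamus exceeded hippocampus in *Tcf7l2*, *Bcas1* (1.10, SE 0.29, adjusted p = 0.00948), *Enpp6* (1.43, SE 0.41, adjusted p = 0.0171) and *Olig1* (0.60, SE 0.19, adjusted p = 0.0316). *Sox10* (0.62, adjusted p = 0.0520) and *Olig2* (0.53, adjusted p = 0.0584) lay just past the threshold and passed after correction for GC content and length, at 0.70 (adjusted p = 0.00617) and 0.60 (adjusted p = 0.00433). *Enpp6* no longer passed without hippocampus replicate 2 (1.21, adjusted p = 0.0567), hippocampus replicate 4 (1.30, adjusted p = 0.0572) or thalamus replicate 1 (1.25, adjusted p = 0.0581). *Olig1* no longer passed in 5 such fits, with values from 0.45 to 0.72 over all of them: those without hippocampus replicates 2, 3 or 4 or thalamus replicates 2 or 4. It also missed the threshold without those 4 hippocampus libraries, where *Tcf7l2*, *Bcas1* and *Enpp6* passed.

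**Figure D5:**
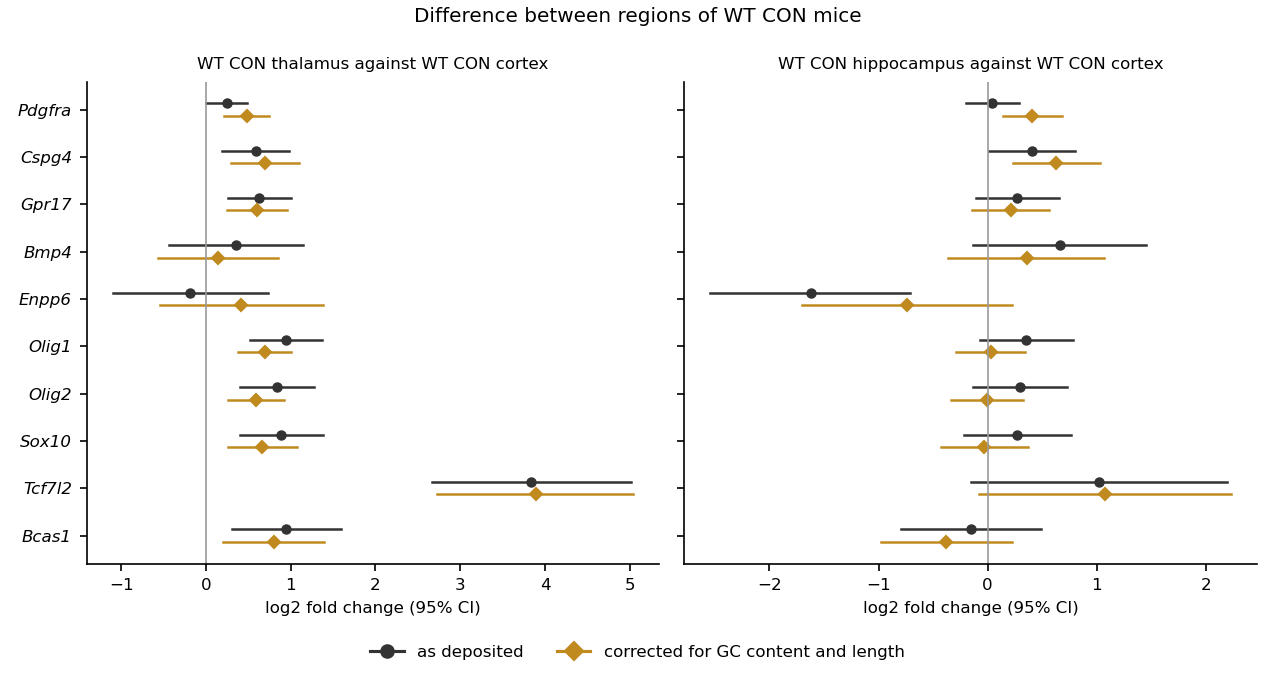
Log2 fold changes of the 10 genes in WT CON mice between thalamus and cortex and between hippocampus and cortex, as deposited and after correction for GC content and length, with 95% intervals. Thalamus against cortex, 7 genes lie above 0 with adjusted p under 0.05, led by *Tcf7l2* at 3.84, and *Enpp6* is the gene below 0 in the hippocampus, at -1.62.

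Levels were also ordered over the 9 groups of region and treatment. For 7 of the 10 genes the highest group mean was in WT CON mice: that of *Olig1* (98.5 FPKM), *Olig2* (20.2), *Sox10* (40.6), *Bcas1* (107), *Gpr17* (8.69) and *Cspg4* (4.30) in the thalamus and that of *Bmp4* (1.5) in the hippocampus. *Pdgfra* (9.35), *Tcf7l2* (24.3) and *Enpp6* (2.86) were highest in repopulated thalamus. The lowest mean was that of a cortex group for 9 genes and that of WT CON hippocampus for *Enpp6*. Neighbours in this order had overlapping libraries in 8 of 8 pairs for 7 genes, and in 7 of 8 pairs for *Enpp6*, *Olig1* and *Tcf7l2*. How all genes order over the 9 groups was not counted. These means are not corrected for GC content and length.

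The 10 genes did not vary as a block from library to library. With the mean of each region taken out, log2 levels of *Olig1* and *Olig2* had a Pearson r of 0.91 over the 34 libraries, *Olig1* and *Sox10* of 0.92 and *Sox10* and *Bcas1* of 0.85. *Cspg4* and *Gpr17* had an r of 0.81. *Pdgfra* stood by itself, with r between 0.05 and 0.41 to the other 9 genes, and *Enpp6* ran against *Gpr17* (-0.25) and *Cspg4* (-0.24) while it went with *Bcas1* (0.64). These are descriptions over libraries that share mice, depth and base composition.

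The genes most like each of the 10 were those with the highest Pearson r of log2 levels over the 34 libraries. *Bcas1* was most like *Mbp* (0.99) and *Mag* (0.98), components of mature myelin. *Olig1* was most like *Plekhb1* (0.97) and *Sirt2* (0.96), *Olig2* like *Olig1* and *Plekhb1* (0.96 each) and *Sox10* like *Plekhb1* and *Gltp* (0.97 each). *Enpp6* was most like the myelin-associated gene *Anln* (0.91) and *Gm19500* (0.90), *Cspg4* like *Plxnb1* (0.90) and *Tmem104* (0.87), and *Gpr17* like *Rgs10* (0.84) and *Srpr* (0.82). *Bmp4* was most like *Slc13a4* (0.85), a sulphate transporter of the meninges and choroid plexus, and *Igfbp2* (0.83), *Pdgfra* like *Sned1* (0.82) and *Dock1* (0.81), and *Tcf7l2* like *Wnt3* and *Agt* (0.96 each). With region means taken out these r ranged from 0.67 (*Pdgfra* and *Dock1*) to 0.98 (*Bcas1* and *Mbp*).

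Other genes of the same cells and pathways gave few calls between treatments. Of 20 further precursor genes, 15 further genes of committed precursors and new oligodendrocytes, 20 myelin genes, 5 PDGF genes, 15 Wnt genes and 15 genes of the Notch pathway and other brakes on differentiation, 0 passed in any of the 9 comparisons by limma-trend. In repopulated against WT CON thalamus, 9 of the 20 precursor genes (6 higher), 3 of the 15 early differentiation genes (all lower) and 5 of the 20 myelin genes (4 higher) had an unadjusted p under 0.05, where 25.0% of all genes did. The median log2 fold change there was -0.07 for the precursor list, -0.10 for the early differentiation list and -0.14 for the myelin list, beside -0.05 over all genes. In the hippocampus all 20 myelin genes had positive log2 fold changes, with a median of 0.61 in irradiated and 0.39 in repopulated against WT CON mice, beside -0.03 and 0.00 over all genes. Of these 20, 5 and 3 had an unadjusted p under 0.05, where 23.9% and 9.68% of all genes did. Summed levels of the 20 genes overlapped between the hippocampus groups. They were 945 to 1786 FPKM in WT CON, 1208 to 3507 in irradiated and 648 to 2379 in repopulated libraries. The precursor and early differentiation lists had medians there of 0.04 and 0.06 in irradiated and 0.17 and -0.18 in repopulated mice. Close to the threshold in the thalamus was *Pcdh15*, a cadherin of precursors (log2 fold change 1.62, adjusted p = 0.0599). The values of these lists, *Pcdh15* included, are given without the correction for GC content and length. *Myrf*, a transcription factor that starts myelination, had 27.5 ± 6.44 FPKM in WT CON and 21.2 ± 1.14 in repopulated libraries (SD, n = 4 each, log2 fold change -0.35, adjusted p = 0.181). Of 10 genes of dividing cells, 4 were in the table and 0 passed the filter on low values.

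BMP signalling was the remaining list, and it had 2 calls. Of its 21 genes, 20 were tested, and in the thalamus 2 were higher in repopulated than in WT CON mice and 0 were lower. Of all genes, 0.836% passed in that comparison in either direction. *Bmpr2*, the type II receptor to which BMP4 binds, rose from 3.70 ± 2.16 to 16.2 ± 3.11 FPKM (mean ± SD of 4 mice each), a difference of 2.25 on the log2 scale (SE 0.34, adjusted p = 0.0212). *Grem1*, a secreted antagonist of BMP4, rose from 0.259 ± 0.144 to 1.01 ± 0.136 FPKM (1.72, SE 0.29, adjusted p = 0.0417). In irradiated thalamus the same genes read 15.3 ± 3.41 and 0.911 ± 0.0358 FPKM (n = 3), with log2 fold changes of 2.15 and 1.60 (adjusted p = 0.0583 each). Corrected for GC content and length, the repopulated value of *Bmpr2* was 0.98 (adjusted p = 0.0535) and that of *Grem1* was 1.35 (adjusted p = 0.0162). The median of the 20 genes was -0.10, beside -0.05 over all genes.

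Between untreated regions, the wider lists did not all follow the 10 genes. Of all genes, 13.0% were higher and 17.0% lower in the thalamus than in the cortex. From cortex to thalamus, 9 of 20 myelin genes were higher and 0 lower (median 0.86), among them *Klk6*, a protease of mature oligodendrocytes, at 2.24 ± 0.261 and 14.0 ± 5.90 FPKM (2.51, adjusted p = 3.41e-04). Of 15 early differentiation genes, 8 were higher and 1 lower (median 0.46), with *Tmem163* at 1.28 (adjusted p = 0.0125). Of 20 precursor genes, 6 were higher and 2 lower (median 0.19): *C1ql1*, a secreted protein of precursors, was at 1.39 (adjusted p = 3.54e-04) and *Nkx2-2*, a transcription factor of early oligodendrocytes, at 1.01 (adjusted p = 0.00344), whereas *Sox5*, which cortical neurons also express, was at -1.65 (adjusted p = 0.00172). Of 15 Wnt genes, 4 were higher, among them *Lef1*, a partner of beta-catenin that thalamic neurons also express (1.81, adjusted p = 5.18e-04), and 2 were lower, and of 15 Notch and brake genes, 5 were higher and 2 lower, with the myelin inhibitor receptor *Rtn4r* at -1.34 (adjusted p = 0.00258). Of the PDGF genes, *Pdgfrb* was higher (0.42, adjusted p = 0.0284), and of 20 BMP genes, *Id2* (-0.69, adjusted p = 9.47e-04) and *Bmpr2* (-1.81, adjusted p = 0.00153) were lower.

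From cortex to hippocampus, where 15.7% of all genes were higher and 21.2% lower, 4 of 20 myelin genes were lower and 0 higher. The share lower is near that of all genes, and *Ermn* was among them (-1.86, adjusted p = 0.00649). Of 20 precursor genes, 5 were higher and 7 lower, with *Sox5* at -2.04 and *Pcdh15* at -2.02. Of 15 early differentiation genes, 5 were higher, among them the kinase gene *Fyn* (0.47, adjusted p = 0.00172), and 2 lower. From hippocampus to thalamus, 14 of 20 myelin genes were higher and 0 lower, where 7.83% and 9.87% of all genes were.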

How the data were processed

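RNA from 34 libraries was sequenced as paired reads of 150 bases on NovaSeq and HiSeq instruments, and which library was read on which is not given in the sources used here. Per the methods, the authors kept RNA with a RIN of at least 7, aligned reads with STAR 2.5.1b and counted them with featureCounts (Rsubread). RPKM, deposited as FPKM, were computed by the authors using limma and edgeR. The labels name build mm10 (GRCm38). Whole reads recovered from the FPKM steps (100.0% of values whole within 0.01) gave depth and a voom alternative.

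Genes with an FPKM of 1 in at least 3 libraries were tested, less 347 of other biotypes, as log2(FPKM + 0.1). A fold change on this scale understates that of low genes. Groups came from the labels. Treatments were compared with limma-trend, each region fitted separately with its 3 groups. Regions and interactions were tested in 1 fit of 9 groups, in which the mouse was a random block (duplicateCorrelation, -0.038). Tests were two-sided and passed at a p under 0.05, Benjamini-Hochberg adjusted over 14706 genes. The correction for GC content and length (splines of 5 degrees of freedom) used the 13871 genes with both values (94.3%), taken from the longest GENCODE transcript of each gene. R 4.3.3, limma 3.58.1, Python 3.11.15, numpy 2.4.6, pandas 2.3.3 and matplotlib 3.10.9 were used, and the fits were tested on simulated data.

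The 10 genes and the lists were chosen with earlier results of these data known. Named were all 10, of each list the genes that passed (at most 4 by adjusted p) or up to 2 by smallest p, and the 2 genes most correlated with each, except for a gene that is not reported here. *Spink8*, *Drd1*, *Lyz2* and *Ms4a7* were named after their values were seen, as were the FPKM ratios. Alternatives were other pseudocounts, filters, scalings, tests and sets of libraries.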

Additional observations from a re-analysis of the deposited data

Results flagged for a closer look

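Among 70 groups of 4 libraries, 2 held a library whose gap to the nearest other exceeded Dixon's 95% critical share of the range for log2 levels. About 1 in 20 groups would do so by chance. *Gpr17* in repopulated thalamus was 7.23 FPKM in replicate 1 and 5.13 to 5.38 in the other replicates, a gap of 0.866 of the range. *Tcf7l2* in WT CON thalamus was 38.8 FPKM in replicate 4 and 18.4 to 19.2 in the other replicates, a gap of 0.947 of the range. The same library had the highest summed level of 10 genes of thalamic neurons, 292 FPKM, and the part of these neurons in the *Tcf7l2* value was not tested.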

How the results depend on the processing

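Of 3231 values of single genes recomputed under the alternatives, 3165 kept their direction and their side of the threshold or did not pass before or after, 25 no longer passed, 41 newly passed and 0 that passed in either fit changed sign. Among 2454 values between treatments, 11 passed. The count of the 10 genes called between treatments was 0 and became 1 in these alternatives: all 9 groups in 1 fit (irradiated against WT CON hippocampus, *Enpp6*, and repopulated against WT CON thalamus, *Gpr17*), array quality weights (repopulated against WT CON thalamus, *Enpp6*), and GC and length correction without animal 33, which is WT CON replicate 1 of hippocampus and thalamus (repopulated, *Bcas1*, and irradiated, *Pdgfra*, both thalamus). Without animal 33 alone the thalamus counts were 2 for repopulated (*Bcas1* and *Enpp6*) and 1 for irradiated (*Enpp6*). Leaving out single libraries gave 0 to 2 for the former and 0 to 1 for the latter. With voom on recovered reads 0 of the 10 genes passed between treatments.

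Between WT CON hippocampus and cortex, 3 genes passed after quantile normalization, 2 after GC and length correction, 1 to 2 without single libraries and 2 without the 4 hippocampus libraries, against 1. Between thalamus and cortex, 4 passed with WT CON libraries only and 4 to 7 without single libraries, against 7. Between thalamus and hippocampus, 2 passed with WT CON libraries only, 2 to 6 without single libraries and 7 after GC and length correction without animal 33, against 4. With array quality weights 1 gene passed in the irradiated against WT CON effect between hippocampus and cortex (*Enpp6*) and 1 in that of repopulated against irradiated (*Tcf7l2*). With the correction, *Enpp6* differences shrank as given above. The cause of the other changes was not tested.

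Replicate numbers did not pair the libraries (correlations of deviations from -0.43 to 0.49 between same-numbered libraries), and with the replicate block 0 of the 10 genes passed in each of 9 comparisons. The correction without animal 33 and the fits without 4 hippocampus libraries were chosen after seeing the data. At 15 to 226 reads per library, *Bmp4* and *Enpp6* are measured with the least precision, and groups of 3 or 4 leave intervals of over 1 log2 unit for both in the hippocampus.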
